A study of Mus musculus with 47 samples.

Results

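The enzymes that carry ethanol to acetaldehyde, acetaldehyde to acetate and acetate to acetyl-CoA were followed in medial prefrontal cortex (PFC) after chronic intermittent ethanol (CIE) vapor, in C57BL/6J mice that were adult and male. The 10 enzymes were Adh1, Adh5, Adh7, Cyp2e1, Cat, Aldh2, Aldh1b1, Aldh1a1, Aldh3a2 and Acss2. They were read from every probeset of the Affymetrix whole-genome mouse array whose annotation gave 1 of these symbols and no other, which came to 19 of 45037 probesets (10 of 18193 genes). 1 further probeset, annotated to Acss2 together with another gene, was left out. CIE mice spent 16 hours of each of 4 days in ethanol vapor (10 to 13 mg/l air), abstained for 7 days, and went through 4 such cycles, with an ethanol injection of 1.6 g/kg and pyrazole at 1 mmol/kg. Control (Ctrl) mice breathed air and received saline with the same dose of pyrazole. Every mouse of every group had thus been given this drug, an inhibitor of alcohol dehydrogenase, before harvest. Harvest followed the final vapor session by 0h, 8h, 72h or 7d. Each array held the RNA of 1 mouse, and the 47 arrays made 8 groups, with 5 mice in CIE 8h and 6 in every other, and separate Ctrl mice for every harvest.

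Alcohol dehydrogenases do most of the first step of ethanol breakdown in liver. Brain is known to hold little of the classical class I enzyme, and there catalase, with hydrogen peroxide, and the microsomal cytochrome Cyp2e1 are the better known routes to acetaldehyde. Aldehyde dehydrogenases of mitochondria and cytosol then make acetate, which acetyl-CoA synthetase turns into acetyl-CoA for fuel, lipid synthesis and histone acetylation. The comparison asks whether the transcripts of these enzymes in PFC differed with ethanol exposure at any of the harvest times.

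The values are log2 RMA intensities, between 2.82 and 14.7 over the series, with array medians between 6.39 and 6.42. A difference is the CIE mean less the Ctrl mean in log2 units, and a probeset was called at a limma adjusted p of 0.01 or less over all probesets. The table gives no detection calls, and 6 of the 19 probesets had a mean log2 under 5, so whether they stood above background is not known here. Values of different probesets cannot be set against each other as amounts of RNA. The array of CIE 8h mouse 15 stood apart, with a mean correlation with the other arrays of 0.967 against 0.985 to 0.994 for the rest. The 8h groups alone came from both repeat groups of the labels. At 8h repeat group 1 held 3 Ctrl and 3 CIE mice, and repeat group 2 held 3 Ctrl and 2 CIE mice. Mouse 15 was 1 of those 2, so values within repeat group 2 rest in part on the array that stood apart. In bulk tissue, fewer cells of a type and less RNA per cell cannot be told apart.

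At 0h, 2 probesets of Aldh2 were higher in CIE mice, by 0.44 and 0.49 (1.36-fold and 1.40-fold), and 1 probeset of Adh5 was called with a difference of -0.27 from the Ctrl 0h mice. That Ctrl group was the highest of the 4 for this probeset, the CIE 0h mean differed by -0.01 from the mean of the other 3, and the call was lost in 10 of 12 fits that left out 1 mouse. The Aldh2 probeset at 0.44 was called in 5 of 12 such fits. The one at 0.49, dim at a mean of 4.75 and with probes that can match other sequences, was called in all 12. Of all probesets 7.28% were called at 0h. No member probeset was called at 8h, 72h or 7d, beside 3.39%, 0.528% and 0.948% of all probesets. The mitochondrial Aldh1b1 had its 2 largest differences at the ends of the time course, 0.35 at 0h and 0.46 at 7d, and passed the F test over the 4 time points together (limma adjusted p = 0.00733) but no single one. The leading probesets of the 10 genes, those of highest mean level, gave 0 calls at every time point.

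The 3 alcohol dehydrogenases lie in 1 cluster of Adh genes, with 2 listed genes between Adh7 and Adh1 and 6 between Adh1 and Adh5 in the RefSeq order of assembly GRCm38.p6. Adh5, the class III enzyme, oxidizes glutathione-bound formaldehyde and handles ethanol poorly. Its leading probeset, 1416185_a_at, had the smallest SD within groups of the 19 (0.10), with a whole range of 11.06 to 11.63 over 47 mice. The difference was -0.08 at 0h (95% interval -0.21 to 0.04, limma adjusted p = 0.413), and it stayed between -0.11 and -0.02 at the later times. The interval at 0h did not reach -0.27, the difference of the other Adh5 probeset, but the intervals of both probesets overlapped. Tested directly, the gap between them did not shift past the threshold at 0h (-0.19, limma adjusted p = 0.109).

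That other Adh5 probeset, 1443380_at, was called lower at 0h. The 6 Ctrl 0h mice ran from 4.62 (median 4.81) to 4.98 and the 6 CIE 0h mice from 4.42 (median 4.53) to 4.57. All 6 CIE mice lay below all 6 Ctrl mice. The difference was -0.27 (95% interval -0.42 to -0.13, limma adjusted p = 0.00796). Ctrl groups themselves differed on this probeset. Ctrl means were 4.80 ± 0.14 at 0h, 4.48 ± 0.04 at 8h, 4.44 ± 0.14 at 72h and 4.68 ± 0.18 at 7d (SD, n = 6 each), and the CIE 0h mean was 4.53 ± 0.06. Ctrl 0h was higher than Ctrl 8h by 0.32 (limma adjusted p = 0.0079) and than Ctrl 72h by 0.36 (limma adjusted p = 0.00169), but Ctrl 7d lay near it, 0.12 lower (limma adjusted p = 0.478). The CIE 0h mean less the Ctrl 7d mean was -0.16 (limma adjusted p = 0.147), and it differed from the mean of the other 3 Ctrl groups by -0.01 (limma adjusted p = 0.933). Leaving out 1 mouse of the groups compared ended this call in 10 of 12 fits, with limma adjusted p from 0.00455 to 0.0275.

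Adh1, the class I enzyme that clears ethanol in liver, was read by 1 probeset, 1416225_at, between 4.28 and 5.22. Its largest difference was at 8h. The 6 Ctrl 8h mice ran from 4.28 (median 4.62) to 4.80, and the 5 CIE 8h mice had 4.76, 4.78, 4.79, 5.10 and 5.16. All 5 CIE mice were above the Ctrl mean and 2 of them above every Ctrl mouse. The difference of 0.33 (95% interval 0.11 to 0.55) missed the threshold at a limma adjusted p of 0.046. It was 0.32 within repeat group 1 and 0.41 within repeat group 2, the latter with 2 CIE mice, and leaving out 1 mouse at 8h gave 0.27 to 0.37. At 0h, 72h and 7d the differences were 0.05, 0.20 and 0.19, so all 4 were positive.

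Adh7, the class IV enzyme, which oxidizes ethanol and retinol in stomach lining, had a pair of probesets whose signs were opposite at every time point. The leading one, 1450110_at, had differences of 0.05, 0.14, 0.15 and 0.16 at 0h, 8h, 72h and 7d. The other, 1421058_at, the dimmest member at a mean of 3.86, had -0.13, -0.15, -0.07 and -0.03. None of the 8 was called, the lowest limma adjusted p was 0.238, and leaving out 1 mouse turned some of these signs at 0h, 72h and 7d.

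Cyp2e1, the ethanol-inducible cytochrome P450, was read by 1 probeset, 1415994_at, between 4.39 and 5.48. At 7d the 6 Ctrl mice ran from 4.53 (median 4.75) to 5.48 and the 6 CIE mice from 4.49 (median 4.58) to 4.65. The CIE mice lay close together, all 6 below the Ctrl mean and 1 below every Ctrl mouse, and the Ctrl mice were spread widely. The difference was -0.28 (95% interval -0.50 to -0.06, limma adjusted p = 0.142). It was -0.18 at 0h, 0.05 at 8h and -0.14 at 72h, with all 6 CIE mice below the Ctrl mean at 0h and at 72h as well.

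**Figure D1:**
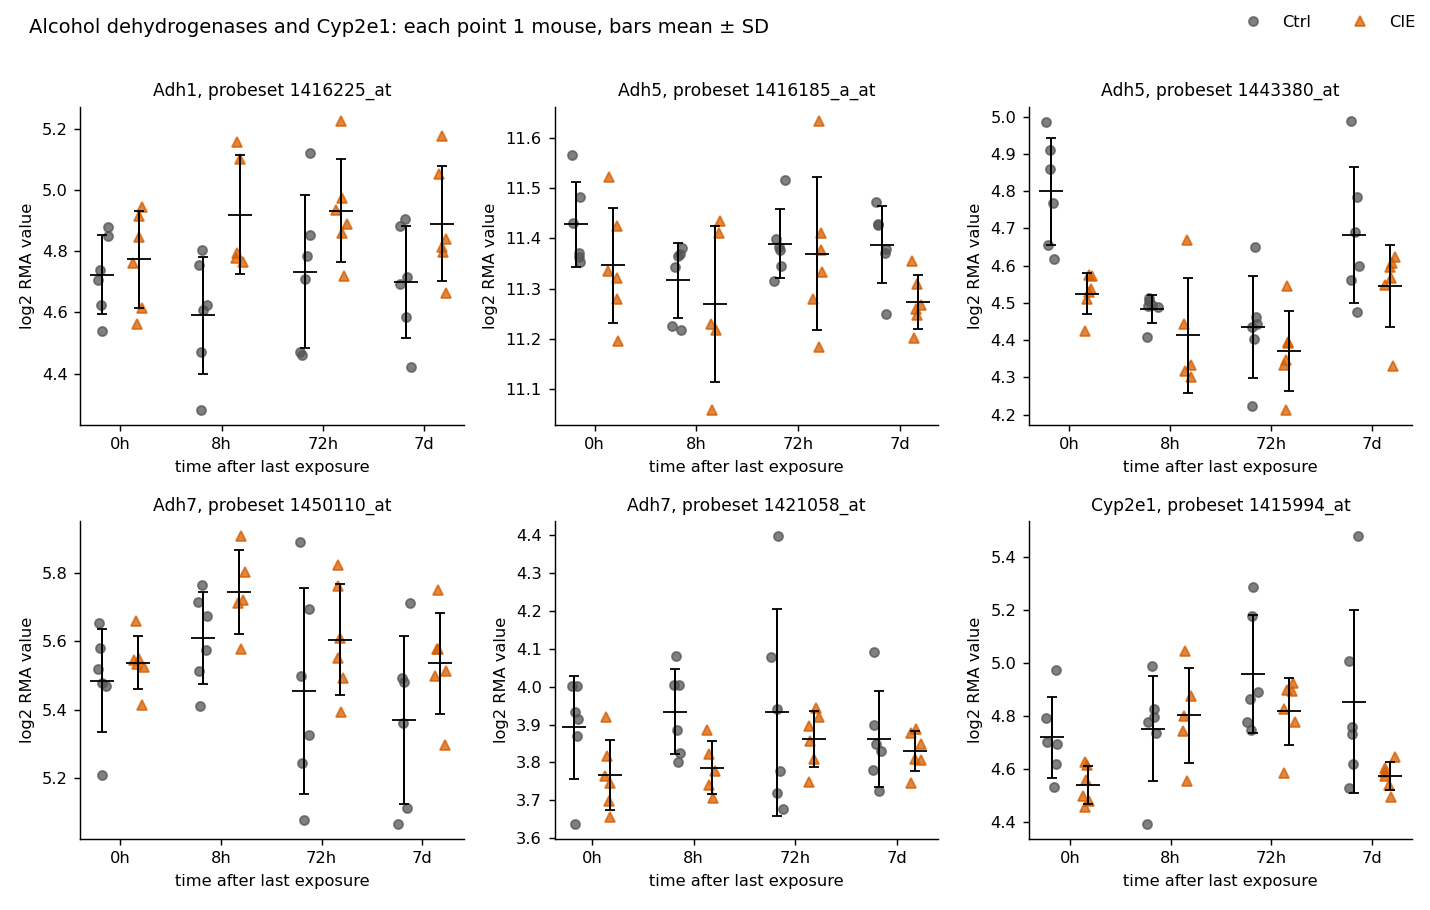
Log2 RMA value of each mouse (points: grey circles Ctrl, orange triangles CIE) for the probesets of Adh1, Adh5, Adh7 and Cyp2e1 by time after the last exposure, with bars for mean ± SD. Adh5 1443380_at is the panel in which the 6 CIE 0h mice lie below the 6 Ctrl 0h mice, and in which Ctrl 0h is the highest of the 4 Ctrl groups.

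Aldh2, the mitochondrial enzyme that removes most acetaldehyde, was read by 5 probesets, all with positive differences at 0h. On 1437410_at, the 6 Ctrl 0h mice ran from 7.16 (median 7.21) to 7.26 and the 6 CIE 0h mice from 7.37 (median 7.60) to 8.07. The groups did not overlap, and the Ctrl mice were tightly packed. Means were 7.22 ± 0.04 and 7.66 ± 0.26 (SD, n = 6 each), a difference of 0.44 (95% interval 0.21 to 0.67, limma adjusted p = 0.00581). CIE 0h also stood 0.51 above the mean of the other 3 Ctrl groups (limma adjusted p = 1.24e-04).

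The probeset 1434988_x_at, whose suffix marks probes that can match other sequences too, gave the other call. Ctrl 0h mice ran from 4.36 (median 4.64) to 4.83 and CIE 0h mice from 5.00 (median 5.08) to 5.26, again with no overlap. The difference was 0.49 (95% interval 0.27 to 0.71, limma adjusted p = 0.00168). It remained called in all 12 fits that left out 1 mouse of those groups, whereas 1437410_at was called in 5 of 12, with limma adjusted p from 0.0029 to 0.03. Ctrl means on 1434988_x_at were 4.63 at 0h, 4.87 at 8h, 4.64 at 72h and 4.45 at 7d. The F test over the Ctrl groups gave a limma adjusted p of 0.0625, and 0.00482 with repeat group 1 alone. CIE 0h stood 0.25 above Ctrl 8h, the highest Ctrl group on this probeset (limma adjusted p = 0.138).

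The other 3 probesets of Aldh2 were not called at 0h. The differences were 0.27 on 1457155_at (95% interval 0.06 to 0.48, limma adjusted p = 0.073), 0.22 on 1434987_at (-0.05 to 0.49, limma adjusted p = 0.281) and 0.12 on the leading probeset 1448143_at (-0.11 to 0.36, limma adjusted p = 0.529). On the leading probeset Ctrl mice ran from 9.45 to 10.20 and CIE mice from 9.54 to 10.09, and 5 of 6 CIE mice were above the Ctrl mean. These 5 probesets, annotated to the same gene, followed each other weakly or not at all from mouse to mouse. Over the deviations of 47 arrays from their group means the 10 correlations ran from -0.32 to 0.37, the highest being 0.35 for 1448143_at with 1434987_at and 0.37 for 1434987_at with 1434988_x_at.

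At 8h the 5 probesets of Aldh2 differed by between -0.12 and 0.08, with 0 calls. The probeset 1437410_at had 6.89 (median 7.03) to 7.28 in the 6 Ctrl mice, and 6.43, 6.90, 6.94, 7.09 and 7.47 in the 5 CIE mice. The groups overlapped, the mouse at 6.43 was the one whose array stood apart, and the difference was -0.09 (95% interval -0.33 to 0.15), or 0.043 without that mouse. The ethanol effect at 8h was lower than at 0h by 0.53 (95% interval of the difference between effects -0.86 to -0.20, limma adjusted p = 0.0312), which missed the threshold. At 72h 4 of the 5 probesets differed by between -0.01 and 0.03, and 1434987_at by 0.24 (limma adjusted p = 0.424).

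At 7d all 5 Aldh2 probesets were again on the positive side, by 0.05 to 0.31, with 0 calls. On 1437410_at the Ctrl mice ran from 7.08 (median 7.23) to 7.28 and the CIE mice from 7.24 (median 7.42) to 7.63. 5 of 6 CIE mice lay above every Ctrl mouse, for a difference of 0.20 (95% interval -0.03 to 0.43, limma adjusted p = 0.36). On 1434988_x_at the difference was 0.31 (95% interval 0.09 to 0.53, limma adjusted p = 0.103), with all 6 CIE mice above the Ctrl mean. A p that misses the threshold does not show that the groups were alike, and these intervals reach 0.43 and 0.53.

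Aldh1b1, a mitochondrial aldehyde dehydrogenase closely related to Aldh2, was read by 1 probeset, 1451260_at. At 7d the 6 Ctrl mice ran from 5.82 (median 6.23) to 6.43 and the 6 CIE mice from 6.43 (median 6.62) to 6.80. The lowest CIE mouse sat just above the highest Ctrl mouse. Means were 6.16 ± 0.22 and 6.62 ± 0.17 (SD, n = 6 each), and the difference of 0.46 (1.37-fold, 95% interval 0.22 to 0.70) had a limma adjusted p of 0.0229. It was the 1 member probeset whose groups did not overlap at 7d, where 3.35% of all probesets did not overlap.

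At 0h Aldh1b1 had 5.80 (median 6.29) to 6.59 in Ctrl and 6.38 (median 6.61) to 6.89 in CIE. All 6 CIE mice were above the Ctrl mean and 3 above every Ctrl mouse, for a difference of 0.35 (95% interval 0.10 to 0.59, limma adjusted p = 0.0426). At 8h and 72h the differences were -0.03 and 0.01, with intervals within ±0.28. In order of level, CIE 7d (6.62) and CIE 0h (6.61) came first, and the other 6 groups followed between 6.16 (Ctrl 7d) and 6.26 (Ctrl 0h), closer to each other than the SD of most of them. The test of whether the effect differed between times gave a limma adjusted p of 0.0838 and did not pass. The F test over all 4 times passed in 35 of 47 fits that left out 1 mouse (limma adjusted p 0.00405 to 0.0177) and missed with the striatal marker level as a term (0.0118).

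**Figure D2:**
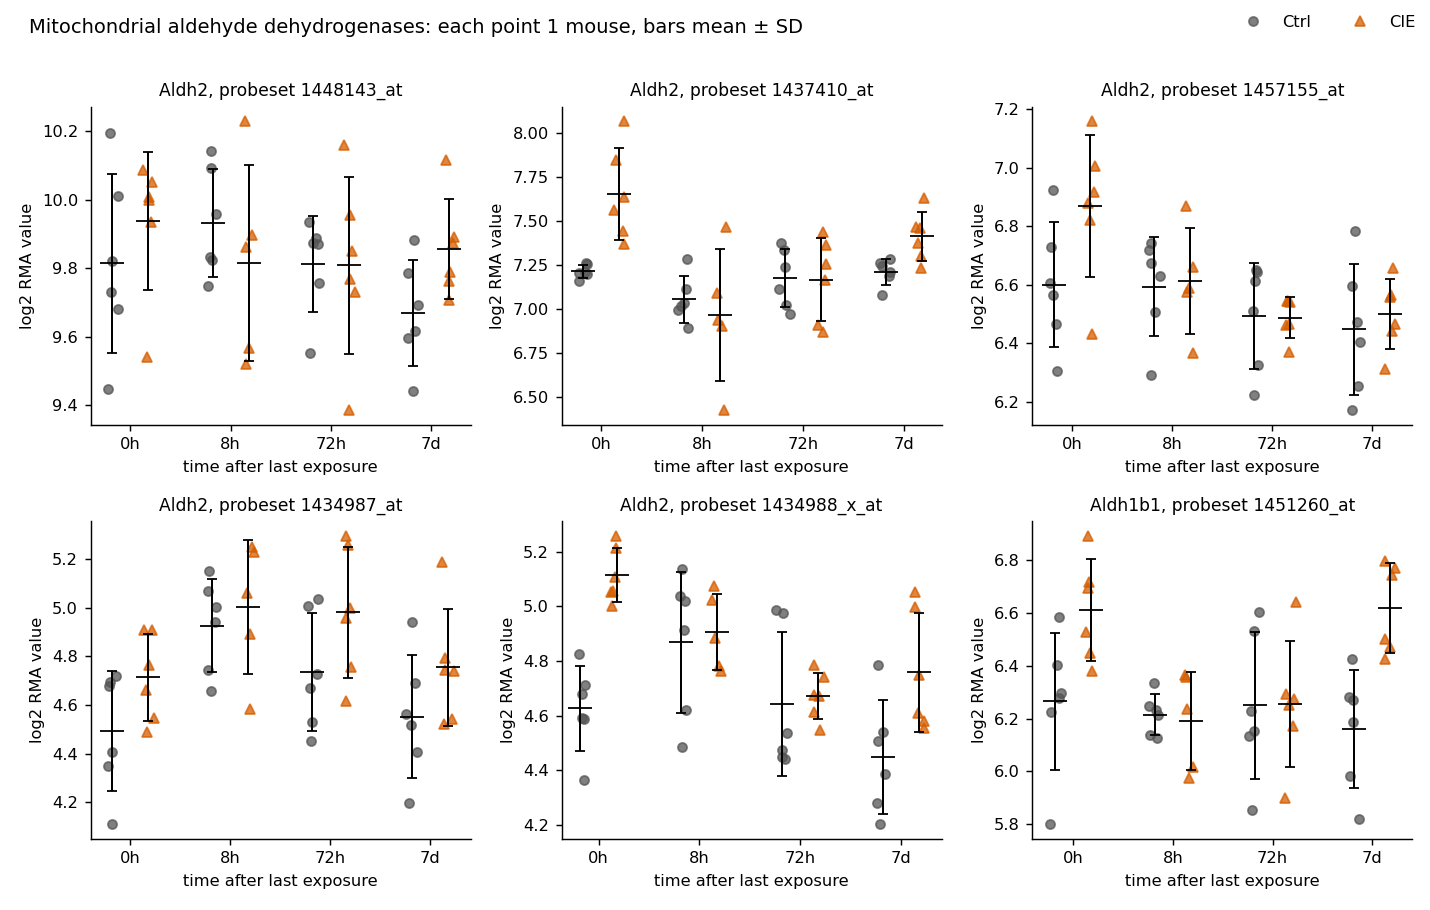
Log2 RMA value of each mouse (points: grey circles Ctrl, orange triangles CIE) for the 5 probesets of Aldh2 and the probeset of Aldh1b1 by time after the last exposure, with bars for mean ± SD. CIE mice lie above all Ctrl mice at 0h on Aldh2 1437410_at and 1434988_x_at and at 7d on Aldh1b1, and the groups overlap on the leading Aldh2 probeset 1448143_at at all 4 times.

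Aldh1a1, a cytosolic enzyme best known for making retinoic acid and present in dopamine neurons, varied most from mouse to mouse. Its probeset 1416468_at spanned 8.30 to 10.62, with an SD within groups of 0.37. At 7d the Ctrl mice ran from 9.54 (median 9.86) to 10.23 and the CIE mice from 8.30 (median 9.65) to 9.86. Mouse 7 of CIE 7d alone was far below the rest. The difference was -0.36 (95% interval -0.77 to 0.05, limma adjusted p = 0.365), and -0.13 without that mouse. At 0h, 8h and 72h the differences were -0.28, -0.09 and 0.11, none called.

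Aldh3a2, the fatty aldehyde dehydrogenase of the endoplasmic reticulum, was tight by comparison, from 8.57 to 9.14 on 1415776_at. Its 4 differences were negative, at -0.09, -0.04, -0.13 and -0.02. At 72h all 6 CIE mice were below the Ctrl mean and the interval, -0.26 to -0.00, just left out 0, with a limma adjusted p of 0.328.

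Acss2, the cytosolic and nuclear enzyme that makes acetyl-CoA from acetate, was read by 3 probesets and called on none at any time. On the leading one, 1422479_at, Ctrl 0h mice ran from 10.23 (median 10.48) to 10.52 and CIE 0h mice from 10.07 (median 10.19) to 10.52. 3 CIE mice were below every Ctrl mouse and 1 was above every Ctrl mouse, for a difference of -0.17 (95% interval -0.31 to -0.02, limma adjusted p = 0.108). At 7d it was -0.13, with all 6 CIE mice below the Ctrl mean, and at 8h and 72h it was -0.00 and 0.10. The second probeset, 1422478_a_at, had 0.03, 0.22, 0.15 and -0.05. Its 8h value depended on the repeat group, at -0.02 within group 1 and 0.53 within group 2. The third, 1446542_at, had differences of 0.24, 0.13, 0.19 and 0.14, with limma adjusted p of 0.296 or more. Its 8h value turned sign between the repeat groups, at 0.48 within group 1 and -0.37 within group 2.

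Catalase, the peroxisomal enzyme that can oxidize ethanol with hydrogen peroxide, was read by a pair of probesets. On the leading one, 1416430_at, the differences were -0.20, -0.06, -0.08 and -0.16 at 0h, 8h, 72h and 7d, and on 1416429_a_at they were 0.17, 0.21, 0.05 and 0.13. None was called (lowest limma adjusted p = 0.229). Both probesets agreed on which mice were high and which low, with a correlation of 0.81 over the deviations of 47 arrays from group means, while the differences had opposite signs at every time point over all mice. At 8h the leading probeset had -0.27 within repeat group 1 and 0.27 within repeat group 2, where 1416429_a_at had 0.03 and 0.50, so that both were positive in group 2.

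**Figure D3:**
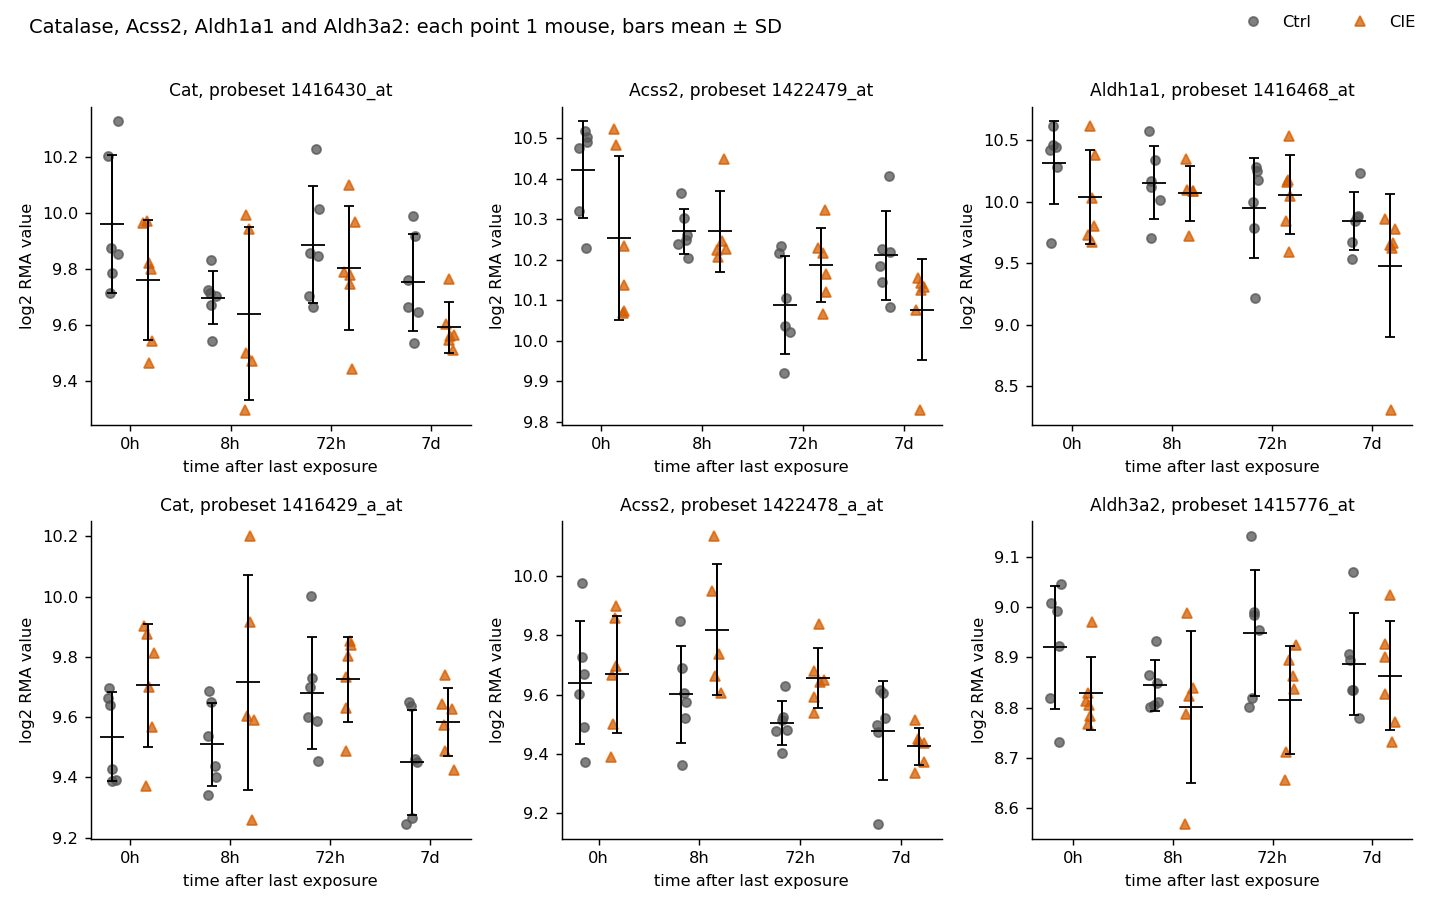
Log2 RMA value of each mouse (points: grey circles Ctrl, orange triangles CIE) for the probesets of Cat, the 2 brighter probesets of Acss2, Aldh1a1 and Aldh3a2 by time after the last exposure, with bars for mean ± SD. No panel shows separated groups, and CIE 7d mouse 7 stands alone at 8.30 for Aldh1a1.

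The gap between the catalase probesets was therefore taken within each mouse, a comparison chosen after these values were seen. As 1416429_a_at minus 1416430_at, it was -0.63 (median -0.41) to -0.23 in Ctrl 0h mice and -0.27 (median -0.03) to 0.08 in CIE 0h mice. 5 of 6 CIE mice lay above all Ctrl mice. The gap shifted by 0.37 (95% interval 0.22 to 0.52), and in limma's fit over the 8469 genes with at least 2 probesets the adjusted p was 8.19e-04. It was called in all 12 fits that left out 1 mouse of those groups. The same fit called 5.22% of those genes at 0h, 3.81% at 8h, 0.342% at 72h and 0.638% at 7d.

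At 8h the gap was -0.28 to -0.07 in Ctrl mice, and -0.03, -0.03, 0.11, 0.12 and 0.21 in the 5 CIE mice. The groups did not overlap, and how often this held among all genes with at least 2 probesets was not counted. The shift was 0.26 (limma adjusted p = 0.0224), with 0.30 and 0.23 within repeat groups 1 and 2 and 0.23 to 0.29 when 1 mouse at 8h was left out. At 7d it was 0.29 (95% interval 0.14 to 0.44, limma adjusted p = 0.0227), with 5 of 6 CIE mice above all Ctrl mice, and at 72h 0.13 (-0.02 to 0.28, limma adjusted p = 0.464). Over the 4 times together the F test gave a limma adjusted p of 4.14e-05, where 13.2% of the genes passed, and a test of whether the shift differed between times gave 0.371. The Ctrl gap itself was widest at 0h, at a mean of -0.42 against -0.30 to -0.19 later. A shift of this kind shows unequal change of what both probesets read, and not which of them moved. Among the other 4 members with several probesets the gap between the leading probeset and the next was called at no time, and the nearest was Adh7 at 8h (-0.28, limma adjusted p = 0.0693).

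**Figure D4:**
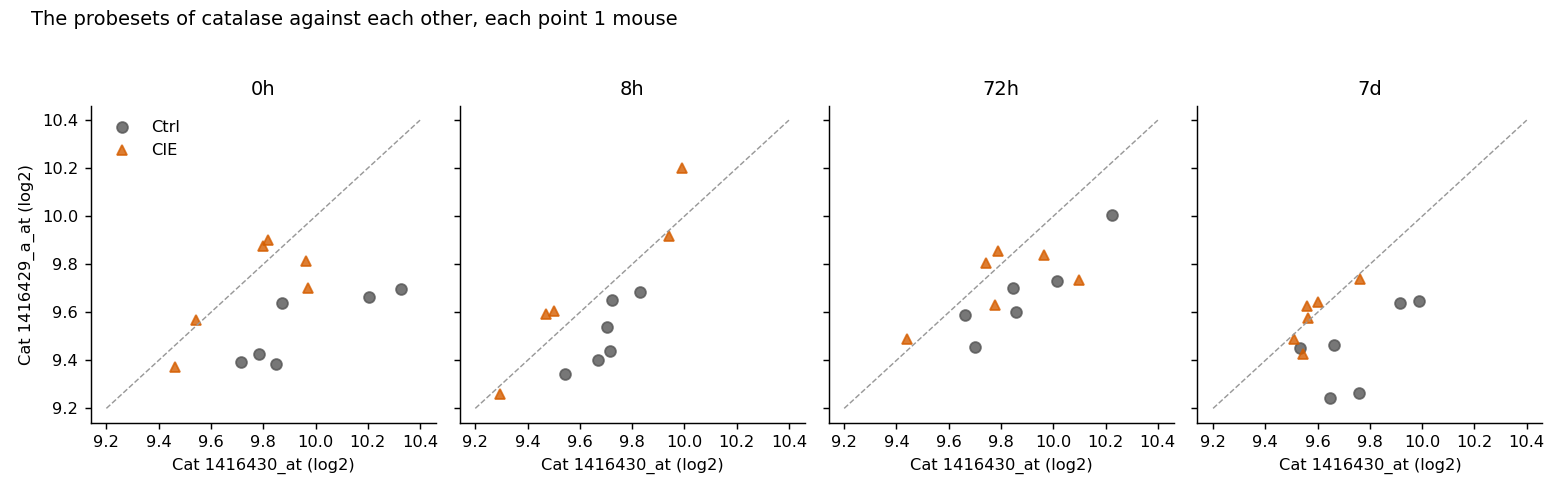
Log2 RMA value of catalase probeset 1416429_a_at against that of 1416430_at, 1 point per mouse (grey circles Ctrl, orange triangles CIE), 1 panel per time, with a dashed line where both values are equal. The points rise together within a group, and most CIE mice lie nearer to the line than Ctrl mice or above it, with mean gaps of -0.05 against -0.42 at 0h and 0.08 against -0.19 at 8h.

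Over all 19 probesets, 3 were called at 0h (15.8%), where 7.28% of all probesets were called. 2 were higher and 1 lower, beside 3.69% higher and 3.58% lower over the array, and the 3 were also the members whose groups did not overlap, beside 7.01% of all probesets. These 3 belonged to 2 genes, and whether their share differed from that of the array was not tested. At an unadjusted limma p under 0.05 the members were 6 at 0h (28.6% of all probesets), 2 at 8h (28.1%), 1 at 72h (14.3%) and 3 at 7d (17.5%). At 8h the sign of the difference was opposite in the 2 repeat groups for 12 of the 19 probesets, all 5 of Aldh2 but 1437410_at among them. The 0 calls at 8h, 72h and 7d stood beside 3.39%, 0.528% and 0.948% of all probesets.

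The median difference of the 19 was 0.05, -0.00, 0.01 and 0.05 at 0h, 8h, 72h and 7d, near the median of all probesets, which was within 0.01 of 0 at each time. Median sizes, sign apart, were 0.18, 0.08, 0.08 and 0.16 for the members and 0.12, 0.13, 0.08 and 0.09 for all probesets. The test over all 4 times passed for 2 members, Aldh1b1 and Aldh2 1434988_x_at (limma adjusted p = 0.00243), where 13.6% of all probesets passed. The test of an effect differing between times passed for 0 members, where 3.77% passed, and 4 members had an unadjusted limma p under 0.05 beside 27.9%. In none of the pairwise tests between times was a member called.

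**Figure D5:**
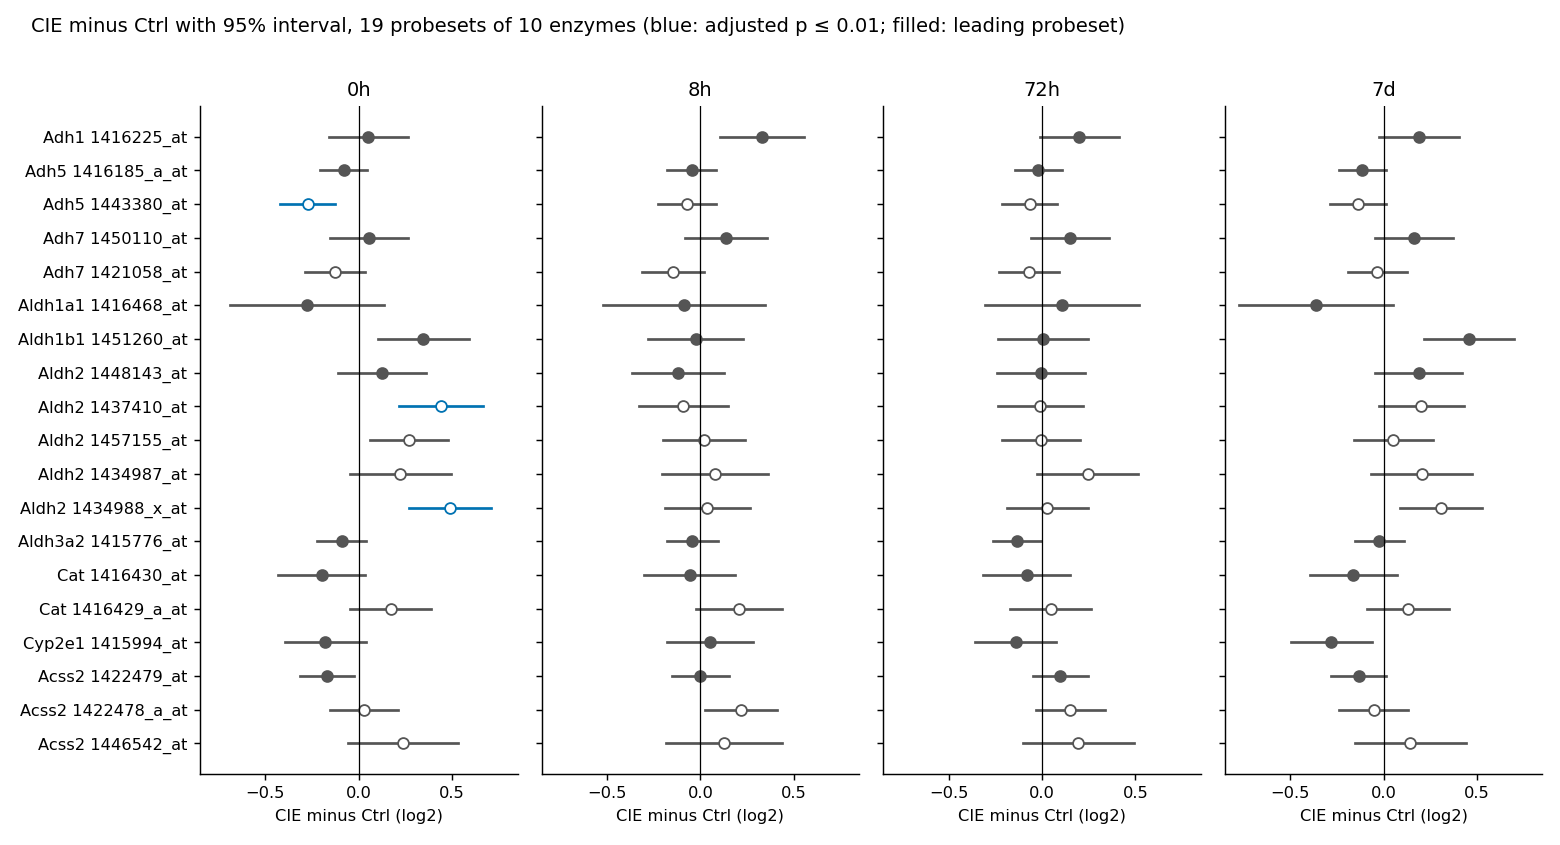
CIE minus Ctrl (log2) with its 95% interval for the 19 probesets of the 10 enzymes, 1 panel per time after the last exposure; filled points are leading probesets and blue marks a limma adjusted p of 0.01 or less. The 3 blue points are all at 0h: Adh5 1443380_at at -0.27 and Aldh2 1437410_at and 1434988_x_at at 0.44 and 0.49.

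Among the 4 Ctrl groups, which differ in time of harvest and hold no ethanol, 1 member probeset passed the F test, Adh5 1443380_at (limma adjusted p = 0.00298), where 1.72% of all probesets passed. Acss2 1422479_at was next (limma adjusted p = 0.0166). Its Ctrl means were 10.42 at 0h, 10.27 at 8h, 10.09 at 72h and 10.21 at 7d, and the step from 0h to 72h was larger than the spread between mice, Ctrl 0h being higher by 0.33 (limma adjusted p = 0.00337). For both probesets the negative CIE difference at 0h was taken against the highest Ctrl group, which is also the only 1 matched to CIE 0h in harvest. Among the Ctrl groups, clock time, age and time since the last session and the last pyrazole dose cannot be told apart. Ctrl 8h was also the only Ctrl group drawn from both repeat groups. With repeat group 1 alone, the F test passed for Adh5 1443380_at (limma adjusted p = 0.00204) and also for Aldh2 1434988_x_at (limma adjusted p = 0.00482). The part of the Ctrl 0h level in these differences was not tested. The CIE 0h mean of Acss2 1422479_at stood 0.06 above the mean of the other 3 Ctrl groups (limma adjusted p = 0.473).

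Within groups, the leading probesets of some members moved together from mouse to mouse. Over the 47 deviations from group means the highest correlations were 0.79 between Adh5 and Cat, 0.67 between Aldh1a1 and Acss2 and 0.50 between Adh1 and Cat, and the lowest -0.59 between Aldh2 and Cat. All these values share arrays, and so share array quality and dissection. Adh5 and Cat correlated with the mean of 12 astrocyte markers (0.59 and 0.65), with that of 8 oligodendrocyte markers (0.56 and 0.41) and with that of 10 neuron markers (-0.50 and -0.54). Aldh1b1 correlated with the oligodendrocyte mean (0.57), and Aldh1a1 ran against that of 16 striatal medium spiny neuron markers (-0.50). Adh5 correlated with the striatal mean (0.42), and Aldh2, Acss2 and Aldh1a1 with the neuron mean (0.47, 0.44 and 0.41). Aldh2 correlated with microglial markers (0.40), Adh1 with hepatocyte and endothelial markers (0.44 and 0.43) and Aldh1a1 with endothelial markers (0.40). All other correlations of leading probesets with marker means were smaller in size. The genes most like Cat, of the highest correlation over all named probesets and so high by choice, were Kdm6a (0.90), Gnai2 (0.89) and Metap2 (0.89). Those most like Adh5 were Cldnd1 (0.84), Daam2 (0.82) and Septin4 (0.81), and those most like Aldh2 were Pdia3 (0.84), Psmd13 (0.82) and Dnajc7 (0.82). Aldh1a1 was most like Cntn1 (0.82), Cast (0.79) and Thrsp (0.78), and Acss2 most like Steap2 (0.76), Ubash3b (0.75) and Cast (0.75). Adh1 was most like Zfp92 (0.73), Adamts9 (0.72) and Qprt (0.70), and Adh7 most like Nlrc3 (0.66), Lce1a2 (0.65) and Mmrn1 (0.64). Aldh1b1 was nearest to 1700063D05Rik (0.69), Cgn (0.66) and Zkscan7 (0.65), Aldh3a2 to Asxl2 (0.70), Srp14 (0.68) and Lipe (0.68), and Cyp2e1 to Mier1 (0.62), Csnk1g1 (0.60) and Ensa (0.59).

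Markers of other cells were set beside the 0h calls. Over all probesets 7.28% were called at 0h, 3.39% at 8h, 0.528% at 72h and 0.948% at 7d. Astrocyte markers passed at no time (0 of 12), with list medians of -0.07, 0.00, -0.06 and -0.08. The mean of the 16 striatal markers was 8.36 to 8.70 in Ctrl 0h mice and 8.53 to 10.20 in CIE 0h mice, and all 16 had positive differences at 0h, 10 of them at an unadjusted limma p under 0.05 and 0 called. With that mean as a term, Aldh2 1437410_at had 0.34 (limma adjusted p = 0.0436) and lost its call, and Aldh2 1434988_x_at had 0.44 (0.00951) and Adh5 1443380_at -0.31 (0.00612). The 10 markers of meningeal and perivascular fibroblasts were all on the negative side at 0h (median -0.31, 0 called). Their list mean was 5.68 to 7.85 in Ctrl and 5.64 to 5.92 in CIE mice. Group means were 6.13 ± 0.85 and 5.78 ± 0.11 (SD), and the Ctrl mouse at 7.85 stood far above its group mean and raised it. The part of that mouse in these differences was not tested. Of the 8 hepatocyte markers measured, whose list mean was 4.55 to 4.99 in every mouse, 0 were called at 0h, 72h or 7d. The part of these markers in the 0h calls was not tested beyond this.

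Other genes of the pathway were read from lists, and whether a share called differed from that of all probesets was not tested. Calls of list genes at 8h were not checked by repeat group or without the array that stood apart. Over all probesets 1527 were called at 8h, against 21 with the 8h groups alone and 6772 with array weights. Of 15 further aldehyde dehydrogenases, Aldh4a1, of proline breakdown, was higher at 0h by 0.28 and Aldh3a1, known from cornea, lower by 0.80 (limma adjusted p = 0.00782 and 5.39e-04). Aldh6a1, of valine breakdown, was higher at 8h by 0.55 (limma adjusted p = 0.00624), and 0 passed at 72h or 7d. These were 13.3% of the list at 0h and 6.67% at 8h, beside 7.28% and 3.39% of all probesets. The list medians, -0.02, -0.00, -0.04 and -0.02, were near those of all probesets.

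Of 15 measured genes of other alcohol and aldehyde oxidation or reduction, Xdh, xanthine dehydrogenase, was higher at 0h by 0.61 and at 8h by 0.75 (limma adjusted p = 0.00144 and 8.92e-04). Aox1, aldehyde oxidase, was higher at 8h by 0.95 (limma adjusted p = 0.00426) and Cyb5b, a mitochondrial cytochrome, lower by 0.20 (limma adjusted p = 0.00421). None of this list passed at 72h or 7d, and the shares called were 6.67% at 0h and 20.0% at 8h, beside 7.28% and 3.39%. Its medians were 0.02, -0.01, -0.04 and -0.00.

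Of 17 measured genes of acetate and acetyl-CoA handling, 3 were lower at 8h and 0 passed at the other times. They were Acat1, of ketone use (-0.27), Pdha1, of pyruvate dehydrogenase (-0.20), and Hmgcs1, of sterol synthesis (-0.24), with limma adjusted p from 0.00453 to 0.00793. They were 17.6% of the list, beside 3.39% of all probesets, and the list median at 8h was -0.08. Of 23 measured sterol and lipid synthesis genes under SREBP, 4 were lower at 8h (17.4%), none higher, and 0 passed at other times, with list medians of 0.04, -0.12, -0.06 and 0.08. They were Sqle (-0.37), Cyp51 (-0.31), Sc5d (-0.51) and Stard4 (-0.36). Acss2, which belongs to the same regulated set, had -0.00 at 8h on its leading probeset.

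Of 18 genes of NADH and lactate handling, 0 passed at any time, and 3, 8, 0 and 6 had an unadjusted limma p under 0.05 at 0h, 8h, 72h and 7d. The nearest were Mdh1, cytosolic malate dehydrogenase, at -0.19 and Ldhb, lactate dehydrogenase B, at -0.28, both at 8h (limma adjusted p = 0.0121 and 0.0157). Of 27 measured peroxisomal genes, Hao1, a glycolate oxidase, was higher at 0h by 0.40 and Acox3, of branched fatty acid oxidation, lower by 0.40. At 7d Dao, D-amino acid oxidase (-0.46), Acox3 (-0.39) and Agps, of ether lipid synthesis (-0.25), were lower, while Cat, in the same organelle, was not called on either probeset. The shares called were 7.41% at 0h and 11.1% at 7d, beside 7.28% and 0.948% of all probesets.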

How the data were processed

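RNA of the medial PFC of individual mice was hybridised to Affymetrix whole-genome mouse arrays. For each probeset, log2 values were deposited by the authors. The study's methods describe RMA with the affy package within hybridization batches, quantile normalization across arrays and ComBat for repeat group, with versions not given in the sources used here. Where repeat groups are unevenly filled, as at 8h, ComBat can make differences smaller or larger. All 47 value columns were used as deposited, with 0 left out and no filter. Precision is limited by how many arrays there are.

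The platform annotation gave 34945 probesets 1 symbol, 932 several and 9160 none listed. Symbols of 34741 were updated through Entrez identifiers with the RefSeq table of GRCm38.p6, which gave names and gene order and nothing else. A single model with 8 group means was fitted with limma 3.58.1 in R 4.3.3. CIE minus Ctrl was taken at each time, with moderated F tests over the 4 times, over differences between times and over the 4 Ctrl groups. P-values were adjusted by Benjamini-Hochberg over all probesets and called at 0.01. They set differences of group means against the spread between mice within groups. The gap between probesets of a gene was fitted likewise over 8469 genes. The fit was also run on simulated data with independent normal noise. These held no repeat groups, outlying arrays or dissection differences, so the run cannot show how such features affect the calls.

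The members, the 18 gene lists (6 of pathways, 12 of cell type markers) and the tests were chosen with earlier results of these data known. For list genes the brightest probeset on average was taken, with _x_at suffixes last. All members are named on every probeset, with up to 4 called genes of smallest p of a list at a time, 2 of a list with none, and the 3 genes of highest correlation with each leading probeset. Alternatives were repeat group as a term or group 1 alone, array weights, renewed quantile normalization, a mean log2 of at least 5, an intensity trend with robust prior, a threshold of 0.05, the striatal marker mean as a term, 2 groups alone, 1 probeset per gene and leaving out each array.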

Additional observations from a re-analysis of the deposited data

Results flagged for a closer look

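Each of the 19 probesets was screened in each of the 8 groups for a mouse far from the rest of its group, and 11 of 152 were marked, where chance alone gives about 7.6 (1 in 20). CIE 7d mouse 7 was far below the rest on Aldh1a1 (8.30) and Acss2 1422479_at (9.83), and CIE 8h mouse 15, whose array stood apart, was far above on Acss2 1422479_at (10.45). On the leading Aldh2 probeset CIE 0h mouse 17 was low (9.54), and on Aldh3a2 CIE 0h mouse 43 was high (8.97). On Adh5 1443380_at, Ctrl 8h mouse 50 (4.41) and CIE 7d mouse 13 (4.33) were low. Ctrl 0h mouse 12 was low on Aldh1a1 (9.66) and Ctrl 0h mouse 2 on Adh7 1421058_at (3.64). Ctrl 7d mouse 22 was low on Acss2 1422478_a_at (9.16) and Ctrl 72h mouse 44 on Acss2 1446542_at (4.82). No ethanol effect on a member differed between times past the threshold.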

How the results depend on the processing

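No paired analysis was possible because CIE and Ctrl mice carried different numbers. The count of called members at 0h was 3, and it was 1 among probesets of mean log2 of at least 5, 0 with 1 probeset per gene, 1 with the groups of that time alone and 1 to 3 when 1 array was left out (1 without Ctrl 0h mouse 2, 48 or 56 or CIE 0h mouse 5, 17 or 67). At a threshold of 0.05 the 0 members at 8h became 1 (Adh1) and the 0 at 7d became 1 (Aldh1b1). An effect differing between times passed for 0 members, for 1 with repeat group 1 alone and for 2 with array weights (both Aldh2). A difference among Ctrl groups passed for 1 member, for 2 with repeat group 1 alone, 4 with array weights, 0 at a mean log2 of at least 5, 2 at a threshold of 0.05, 0 with 1 probeset per gene and 0 to 2 when 1 array was left out (0 without Ctrl 0h mouse 20, 2 without Ctrl 0h mouse 12 or Ctrl 7d mouse 18). Of single probesets, Adh5 1443380_at at 0h lost its call with array weights (-0.21) and with the groups of that time alone, and Aldh2 1437410_at with the striatal term (0.34) and with the groups alone (limma adjusted p = 0.0142). The catalase gap at 8h passed with array weights (0.28).

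Over all 19 probesets, signs turned in 16 differences outside the fits without 1 array, none called. Array weights gave -0.0058 for Aldh1b1 at 72h (-0.032 with the striatal term), 0.035 for Aldh2 1448143_at at 72h (0.017 with the striatal term), -0.14 for Aldh2 1434988_x_at and -0.060 for Aldh2 1457155_at at 8h, and 0.054 and 0.014 for Aldh3a2 at 8h and 7d. Repeat group 1 alone gave 0.019 for Aldh2 1448143_at, -0.069 for Aldh2 1457155_at, -0.25 for Aldh2 1434988_x_at, -0.018 for Acss2 1422478_a_at and 0.063 for Aldh3a2, all at 8h. The striatal term gave 0.019 for Aldh2 1457155_at at 72h. Acss2 1422479_at at 8h was 0.0012 with a repeat group term and 0.0061 after quantile normalization. Leaving out 1 array turned signs in 23 uncalled differences. At 8h the ranges were -0.045 to 0.019 for Acss2 1422479_at, -0.088 to 0.0063 for Adh5 1416185_a_at, -0.18 to 0.00018 for Aldh1a1, -0.069 to 0.029 for Aldh1b1, -0.22 to 0.043 for Aldh2 1437410_at, -0.045 to 0.080 for Aldh2 1457155_at, -0.039 to 0.091 for Aldh2 1434988_x_at, -0.090 to 0.016 for Aldh3a2, -0.15 to 0.029 for Cat 1416430_at and -0.021 to 0.11 for Cyp2e1. At 72h they were -0.12 to 0.024 for Adh7 1421058_at, -0.060 to 0.025 for Aldh2 1457155_at, -0.073 to 0.017 for Adh5 1416185_a_at, -0.040 to 0.20 for Aldh1a1, -0.074 to 0.077 for Aldh1b1, -0.075 to 0.080 for Aldh2 1448143_at, -0.064 to 0.049 for Aldh2 1437410_at and -0.011 to 0.097 for Aldh2 1434988_x_at. Adh7 1450110_at and Acss2 1422478_a_at at 0h ran from -0.0026 to 0.086 and from -0.025 to 0.096, and at 7d Adh7 1421058_at ran from -0.061 to 0.013, Aldh2 1457155_at from -0.0031 to 0.12 and Aldh3a2 from -0.055 to 0.013. The cause of these changes was not tested. Dim probesets limit what can be said of Adh1, Cyp2e1 and the lesser probesets of Adh5, Adh7 and Aldh2.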

Other observations

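Of the 12 marker lists, those of neurons (10 genes), oligodendrocytes (8), astrocytes (12), meningeal and perivascular fibroblasts (10) and striatal neurons (16) had 0 called genes at every time. Of smallest limma p in each were Stmn2 (-0.26) and Snap25 (-0.11), Cldn11 (0.65) and Mog (0.35), and Slc4a4 (-0.40) and Gjb6 (0.55), all at 8h. Among fibroblast markers these were Lum at 8h (-0.72) and Col1a1 at 0h (-0.24). Among striatal ones they were Ppp1r1b at 0h (0.79) and Scn4b at 8h (-0.73). Limma adjusted p was 0.0179 or more throughout. At 8h the neuron list had 2 positive and 8 negative signs (median -0.09). Oligodendrocytes had 4 and 4 (0.01), astrocytes 6 and 6 (0.00), fibroblasts 2 and 8 (-0.13) and striatal neurons 8 and 8 (0.01). Of 10 cortical projection neuron markers, Neurod2 was higher at 0h by 0.43 and Neurod6 lower by 0.38. Of 10 endothelial markers, Slc2a1, the glucose transporter of brain vessels, was higher at 0h by 0.38. Of 8 mural markers Kcnj8, a potassium channel subunit, was lower at 0h by 0.36. At 0h 7 endothelial and 5 mural markers were positive (list medians 0.05 and 0.01). Of 9 microglial markers, P2ry12 was lower at 8h by 0.57, while 5 of the 9 were positive (list median 0.10). Of 7 choroid plexus markers, Clic6 was higher at 0h by 0.51 and at 8h by 0.61, and Kl lower at 0h by 0.46. That list had 3 positive and 4 negative signs at both times (medians -0.03 and -0.10). Of 6 red blood cell markers, Alas2, of heme synthesis, was lower at 0h by 0.59 and at 8h by 0.77. Of the 6, 3 were negative at 0h and 4 at 8h (list medians -0.07 and -0.08). Of 8 hepatocyte markers, Apoa2 was higher at 8h by 0.44 and Tat, a tyrosine aminotransferase induced by glucocorticoids, lower by 0.39. None of the 12 lists held a called gene at 72h or 7d, where 0.528% and 0.948% of all probesets were called. In the lists with a call the share was 10.0% to 28.6% at 0h and 11.1% to 25.0% at 8h, from 1 or 2 genes each. In the other lists it was 0.0%. Over all probesets the share was 7.28% and 3.39%. In lists this short 1 call alone gives a larger share than that, so the range of lists with a call shows no enrichment. Whether the shares differed was not tested.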
